A study of Homo sapiens with 2 samples.

Results

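PML nuclear bodies and the SUMO pathway were examined through 8 genes, PML, SP100, DAXX, SENP1, SUMO2, SUMO3, RNF4 and RARA, chosen by name. A gene was taken where a probe named it and no other gene. Of the 8 genes, 7 had such a probe, with 8 probes in all among 30968 on the array. HaCaT, a keratinocyte line from human skin that became immortal without a viral gene, was grown to passage 22 either with 0.5 µg/ml arsenic trioxide (exposed cells) or without it (passage control cells). Amplified RNA labelled with Cy5 was read on arrays of 1 colour, from 4 preparations a line that the design names technical replicates, each on 3 arrays. The deposited table gives every probe a single combined intensity in each group and an error for it, and the spread over arrays is not analysed here. Since exposed and passage control cells were 1 line each, an effect of arsenic and a chance divergence of the lines cannot be told apart.

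PML nuclear bodies are small spherical structures of the cell nucleus, built from the PML protein and filled with partners such as SP100 and DAXX. SUMO is a small protein that enzymes attach to lysines of other proteins, much as ubiquitin is attached, and SUMO on PML holds the bodies together. Arsenic trioxide binds cysteines of PML, increases its attachment to SUMO and leads to ubiquitination by RNF4 and breakdown in the proteasome. In acute promyelocytic leukaemia the drug destroys in this way the fusion protein of PML with the retinoic acid receptor RARA. These steps act on proteins, whereas the arrays measured transcripts.

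Of the 7 genes with a probe, 4 were detected in both groups (PML, DAXX, SENP1 and RARA), and 3 were detected in neither (SP100, SUMO2 and SUMO3). SENP1, a protease that removes SUMO from its targets, was the only one of these that passed the test, and it was 1.26-fold lower in exposed cells. PML had the lowest ratio, 1.50-fold lower in exposed cells, and did not pass the test. A probe counted as detected at a deposited detection p-value below 0.05. Changes are log2 ratios of exposed over passage control intensities minus the median of that ratio over the 9915 probes detected in both groups, which was -0.43. A gene was called changed where its Benjamini-Hochberg adjusted p, computed over 7681 genes from the p-values in the authors' deposited table, was below 0.05. By this rule 2.56% of all tested genes were called lower in exposed cells and 3.11% higher. The members had 1 call lower and 0 higher among 4 genes, a count too small to say anything about them as a group. The sources do not say which test gave the deposited p-values, which can reflect no more than technical spread within a line.

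**Figure D1:**
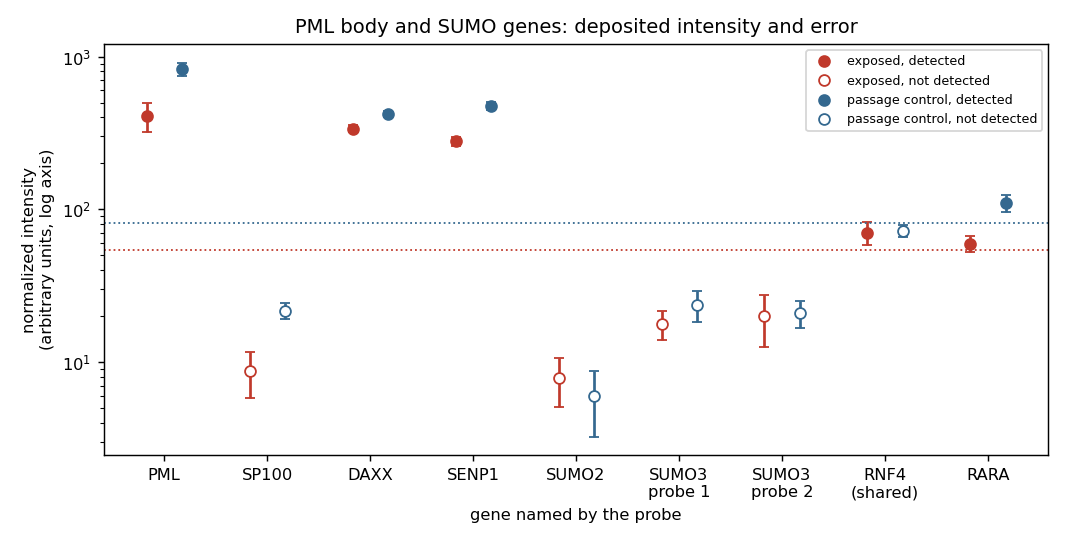
Normalized intensity (arbitrary units, log axis) of every probe that names one of the 8 genes, in exposed cells (red, left) and passage control cells (blue, right), with the deposited error as bars and open circles where the probe was not detected. Dotted lines mark the lowest intensity of any detected probe, 54.4 in exposed cells, 81.7 in passage control cells. The SP100, SUMO2 and SUMO3 probes all lie below both lines.

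PML, the scaffold of the bodies and a member of the tripartite motif family, had an intensity of 409 (error 88.7) in exposed cells, against 828 (error 84.8) in passage control cells. Before centring, the intensity in exposed cells was lower by more than both errors together. The same held for DAXX, and 92.6% of measured genes had a ratio below 0 on that scale. The centred log2 ratio of PML was -0.59 ± 0.35, where ± gives an error combined from those of the 2 intensities, not an SD. In the authors' deposited table the log2 ratio was -0.65 with a p-value of 0.0359, and the adjusted p was 0.304, so PML was not called. An unadjusted deposited p-value below 0.05 together with a lower ratio was found for 6.42% of all tested genes (7.15% for a higher ratio). A ratio at least 1.5-fold lower was found for 3.50% of measured genes (3.52% for 1.5-fold higher). The probe's annotation lists 9 RefSeq transcripts and 3 Ensembl transcripts of PML, a gene on chromosome 15. Transcripts for the different PML isoforms, which differ in their C-terminal ends, were therefore not told apart.

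The error of the PML intensity was large for its level in exposed cells. It was 21.7% of the intensity there, against 10.2% in passage control cells. Among 1529 genes of like intensity in exposed cells, within 1.5-fold of PML, the median error was 9.76% of the intensity and 97.8% of the genes had a smaller one than PML. Among 1215 genes of like intensity in passage control cells the median was 8.34%, and 68.8% had a smaller error than PML. DAXX and SENP1 were measured more precisely, with errors of 4.83% and 6.77% of the intensity in exposed cells and 4.55% and 5.93% in passage control cells. Only 2.96% of genes of like intensity in exposed cells had a smaller error than DAXX, and 19.4% had a smaller one than SENP1.

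**Figure D2:**
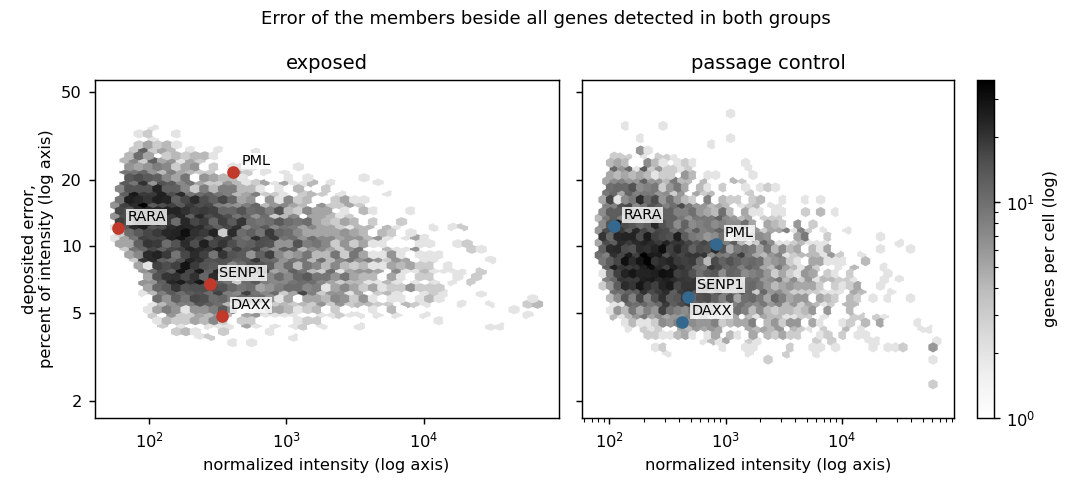
Deposited error as a percentage of the intensity (log axis) against normalized intensity (log axis) for all 7243 genes detected in both groups (grey, darker where more genes lie), in exposed cells (left) and passage control cells (right), with the 4 detected members as coloured points. PML stands at the upper edge in exposed cells at 21.7%, while DAXX lies near the lower edge in both groups.

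DAXX is a histone chaperone and corepressor that PML recruits to the bodies. Its intensity was 338 (error 16.3) in exposed cells, against 423 (error 19.3) in passage control cells. The centred log2 ratio was 0.11 ± 0.10, and the log2 ratio without centring was -0.32. The authors' deposited table gave a log2 ratio of 0.10, and the adjusted p of 0.992 did not pass. The log2 ratio of PML minus that of DAXX was -0.70, with a combined error of 0.36, and no test between genes was made. The probe names DAXX 5 times, once for each of 5 Ensembl genes, and was counted as naming 1 gene.

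SP100, a resident protein of the bodies and a known autoantigen in primary biliary cholangitis, read 8.71 (error 2.88) in exposed cells, against 21.6 (error 2.62) in passage control cells. Both values lay far below the lowest detected intensities, and the detection p-values were 0.999 and 0.998, so no ratio was given. A probe that is not detected does not show that the transcript is absent. Of all 18449 genes with a probe naming 1 symbol, 58.3% were not measured. This share also counts any gene detected in 1 group alone that was not the higher after centring.

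Neither SUMO2 nor SUMO3 gave a measured value. SUMO2 and SUMO3 are near-identical modifiers that form chains on PML and other targets. The SUMO2 probe read 7.86 (error 2.78) in exposed cells, against 6.03 (error 2.77) in passage control cells. The 2 probes for SUMO3 read 17.9 and 20.2 in exposed cells, against 23.8 and 20.9 in passage control cells. All 3 probes had detection p-values of 0.940 or higher in both groups.

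SENP1 removes SUMO from proteins and also trims newly made SUMO to its active form. Its intensity was 278 (error 18.8) in exposed cells, against 474 (error 28.1) in passage control cells. Before centring, the intensities were further apart than both errors together, on a scale where the median log2 ratio was -0.43. The centred log2 ratio was -0.34 ± 0.13, and the authors' deposited table gave -0.33. The adjusted p was 0.0357, from a deposited p-value of 0.00181. By adjusted p SENP1 ranked 389 among the 436 called genes, and by the size of its change 398, so that it was among the weaker calls on both measures. In these bulk samples, fewer cells that express SENP1 and less SENP1 RNA per cell cannot be told apart.

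The sequence before the start site of SENP1, on chromosome 12, is shown because SENP1 was the only member called. RefSeq's table for GRCh38.p14 held windows for 6 of the 8 genes, 12 windows in all, and none for PML or DAXX. The most upstream of 3 SENP1 windows is printed with the bases before the start site alone, 250 bases at chr12:48106080-48106329 on the minus strand, 5′ to 3′ in the direction of the gene. Capitals mark a match to the core of an interferon response element, GAAA repeated after any 2 bases, and a match to AGGTCA, the repeat unit bound by nuclear receptors such as RARA, which stands here as its reverse complement TGACCT.
SENP1: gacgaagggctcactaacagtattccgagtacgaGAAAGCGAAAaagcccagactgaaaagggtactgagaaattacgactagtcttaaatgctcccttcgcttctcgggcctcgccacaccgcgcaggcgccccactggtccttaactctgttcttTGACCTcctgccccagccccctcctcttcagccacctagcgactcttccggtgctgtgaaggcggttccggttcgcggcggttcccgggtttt
The first match begins 216 bases before the start site and the second 93 bases before it, and they do not overlap. Both motifs, and the GC box GGGCGG, were searched on both strands. Of all 35116 windows of the same length, 3.02% held the interferon core, 12.1% held AGGTCA and 42.6% held the GC box. Of the 12 member windows, 1 held the interferon core and 3 held AGGTCA, 2 of which are overlapping SENP1 windows that share the same site. The GC box was in 8 of the 12, and not in the SENP1 window printed. The most downstream SENP1 window held no interferon core and no AGGTCA, and held the GC box at 2 places. A match in a window is a description of its letters and not a measured binding site.

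RARA encodes the retinoic acid receptor alpha and, on chromosome 17, is the partner of PML in the leukaemia fusion. It read 59.7 (error 7.25) in exposed cells, against 110 (error 13.6) in passage control cells. Both values stood close to the lowest detected intensity of 54.4 in exposed and 81.7 in passage control cells. The centred log2 ratio was -0.45 ± 0.25, while the authors' deposited table gave -0.20 with a p-value of 0.696. The adjusted p of 0.999 did not pass. RARA also held the third AGGTCA match, which is shown because retinoid receptors bind repeats of it. It lies in the 250 bases before the most upstream of 3 RARA start sites, at chr17:40308930-40309179 on the plus strand, and begins 230 bases before the start (capitals).
RARA: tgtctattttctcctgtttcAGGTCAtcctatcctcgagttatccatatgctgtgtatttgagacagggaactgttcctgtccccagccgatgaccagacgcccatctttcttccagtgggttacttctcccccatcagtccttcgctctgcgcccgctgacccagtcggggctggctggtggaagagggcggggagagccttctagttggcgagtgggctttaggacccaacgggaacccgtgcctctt

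RNF4 is the ubiquitin ligase that recognises SUMO chains on PML after arsenic. Its only probe also names RP11-423F24.3 and so fell outside the choice of probes. This shared probe read 70.3 (error 12.1) in exposed cells, where it was detected with a detection p-value of 0.0132. It read 72.3 (error 6.19) in passage control cells, where it was not detected, with a detection p-value of 0.147. The 2 intensities, which are not centred, differed by less than either error. With centring the log2 ratio was 0.21, a bound that takes the lowest detected intensity for passage control cells. The authors' deposited table gave a log2 ratio of 0.34 with a p-value of 0.642.

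Ordered by centred log2 ratio, the 4 detected members ran from PML (-0.59) through RARA (-0.45) and SENP1 (-0.34) to DAXX (0.11). PML, RARA and SENP1 did not differ among themselves beyond their combined errors, which were 0.43 for PML and RARA, 0.37 for PML and SENP1 and 0.28 for SENP1 and RARA. The log2 ratio of DAXX minus that of SENP1 was 0.44, with a combined error of 0.16, and minus that of RARA 0.56, with a combined error of 0.27. On the scale of the authors' deposited log2 ratio the order of RARA and SENP1 was turned round. There the log2 ratio of DAXX minus that of SENP1 was 0.44, and minus that of RARA only 0.31. Without centring all 4 ratios lay below 0, as did those of 92.6% of all measured genes.

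**Figure D3:**
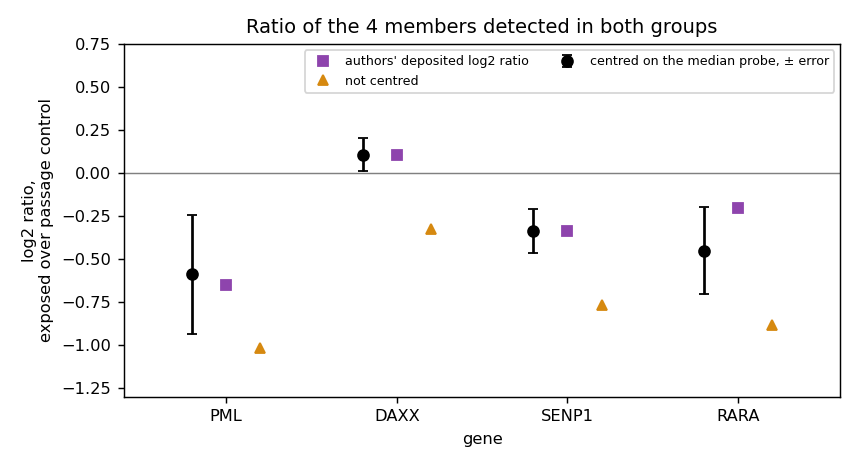
The log2 ratio of exposed over passage control cells for PML, DAXX, SENP1 and RARA, as the centred ratio with its propagated error (black), the authors' deposited log2 ratio (purple) and the ratio without centring (orange). DAXX lies above 0 at 0.11 centred and below it at -0.32 without centring, while the other 3 lie below 0 on every scale.

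Beyond the 8 genes, 8 lists held 82 genes of the SUMO pathway, of PML bodies, of retinoid receptors and of the interferon pathway that induces PML and SP100, the members included. Of these 51 were measured, and 5 of the 51 (9.80%) were called, against 5.68% of all tested genes. The deubiquitinase gene USP7 rose, and SENP1, RXRA, CRABP2 and PLAAT4 fell. The median centred log2 ratio of the 51 genes was -0.03, against 0.01 over all 7691 measured genes.

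SAE1 and UBA2, the subunits of the enzyme that activates SUMO, were not called. SAE1 read 1178 in exposed cells, against 1491 in passage control cells, with a centred log2 ratio of 0.09 ± 0.17. UBA2 read 247 in exposed cells, against 299 in passage control cells, with a centred log2 ratio of 0.16 ± 0.23. Both lay above 0 with centring and below 0 without it. Among the SUMO ligases 3 of 10 were measured and none passed, against 5.68% called among all tested genes. PIAS1 stood at -0.08 ± 0.13 and NSMCE2 at -0.10 ± 0.34. The other 7 were not measured, among them RANBP2 and PIAS4.

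Among the SUMO proteases SENP1 alone was called. Of 9 genes 6 were measured, 4 above and 2 below 0, with a median centred log2 ratio of 0.08. SENP2 read 2241 (error 241) in exposed cells, against 2283 (error 99.7) in passage control cells. Its centred log2 ratio was 0.40 ± 0.17, with a deposited p-value of 0.0256 and an adjusted p of 0.248 that did not pass. The log2 ratio of SENP1 minus that of SENP2 was -0.74, with a combined error of 0.21, and without centring both ratios lay below 0. SENP3, a nucleolar protease for SUMO2 and SUMO3, stood at 0.05 ± 0.10.

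The list of ubiquitin ligases that read SUMO and of proteins that extract their targets also held deubiquitinases. Of its 7 genes 6 were measured, all with centred ratios above 0 and a median of 0.23. Without centring 5 of the 6 lay below 0. USP7, a deubiquitinase that binds PML and acts on p53 and MDM2, rose 1.74-fold. It read 1282 (error 116) in exposed cells, against 992 (error 81.9) in passage control cells. Its centred log2 ratio was 0.80 ± 0.18, against 0.69 in the authors' deposited table, with an adjusted p of 0.0219. USP7 was the only gene of this list higher in exposed cells without centring too, at 0.37. RNF111, the other SUMO-targeted ligase, had a centred log2 ratio of 0.03 ± 0.30, and the extraction ATPase VCP stood at 0.14 ± 0.16.

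No gene of the list of PML body residents and partners was called, against 5.68% of all tested genes. At that share a list of this size can hold no call. Of 22 genes 14 were measured, 7 above and 7 below 0, with a median of -0.01 and with PML the lowest. H3-3B, which encodes the histone variant H3.3 that DAXX deposits, stood at -0.35 ± 0.29, with 1106 in exposed cells against 1903 in passage control cells. H3-3A, the other gene for the same histone, read 81.2 in exposed cells against 109 in passage control cells. Its centred log2 ratio was 7.9e-05 ± 0.18, and it was not called. Another probe names H3-3A together with other genes and so was left out of the lists. It read 144 in exposed cells against 262 in passage control cells, a centred log2 ratio of -0.44. The authors' deposited table gave -0.30 for that probe, with a p-value of 0.464. ISG20, an interferon-induced exonuclease found in the bodies, stood at 0.17 ± 0.18. ATRX, the partner of DAXX in depositing H3.3, was not detected in either group, nor were SP110, SP140 and MORC3.

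Retinoid genes gave the most calls of any of the 8 lists, which differed in their number of measured genes. Of 14 genes 11 were measured, 3 (27.3%) were called lower and none higher. Among all tested genes 2.56% were called lower and 3.11% higher. Of the 11 genes 10 lay below 0, against 49.0% below 0 among all measured genes. The lists were chosen with earlier results of these data known, so these counts are a description. The median centred log2 ratio was -0.47, or -0.37 on the authors' deposited scale. RXRA, the retinoid X receptor that pairs with RARA on DNA, fell 1.70-fold, with 593 (error 47.3) in exposed cells, against 1356 (error 100.1) in passage control cells. PLAAT4, a phospholipase induced by retinoic acid, fell 2.41-fold, with 328 in exposed cells against 1064 in passage control cells. CRABP2, which carries retinoic acid to the receptors, fell 1.39-fold, with 4762 in exposed cells against 8897 in passage control cells. The adjusted p was 0.000249 for RXRA, 0.0308 for PLAAT4 and 0.000463 for CRABP2. RARG, the main retinoic acid receptor of epidermis, stood at -0.48 ± 0.22 and RXRB at -0.43 ± 0.25, close to the -0.45 of RARA, and none of the 3 passed. RXRG stood at 0.09 ± 0.38, and a second PLAAT4 probe was not detected in either group.

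The interferon factors that act upstream of PML and SP100 showed no call among 8 measured of 13 genes. Their median was -0.07. Among all tested genes 5.68% were called, so a list this small can hold no call. IRF1, a transcription factor of interferon responses, was the lowest at -0.49 ± 0.18, with an adjusted p of 0.0535, just outside the limit. IRF1 was called lower when the p-values were adjusted over genes above the median intensity alone. IRF3 stood at 0.22 ± 0.18. IRF9 and IRF7 were not detected in either group.

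**Figure D4:**
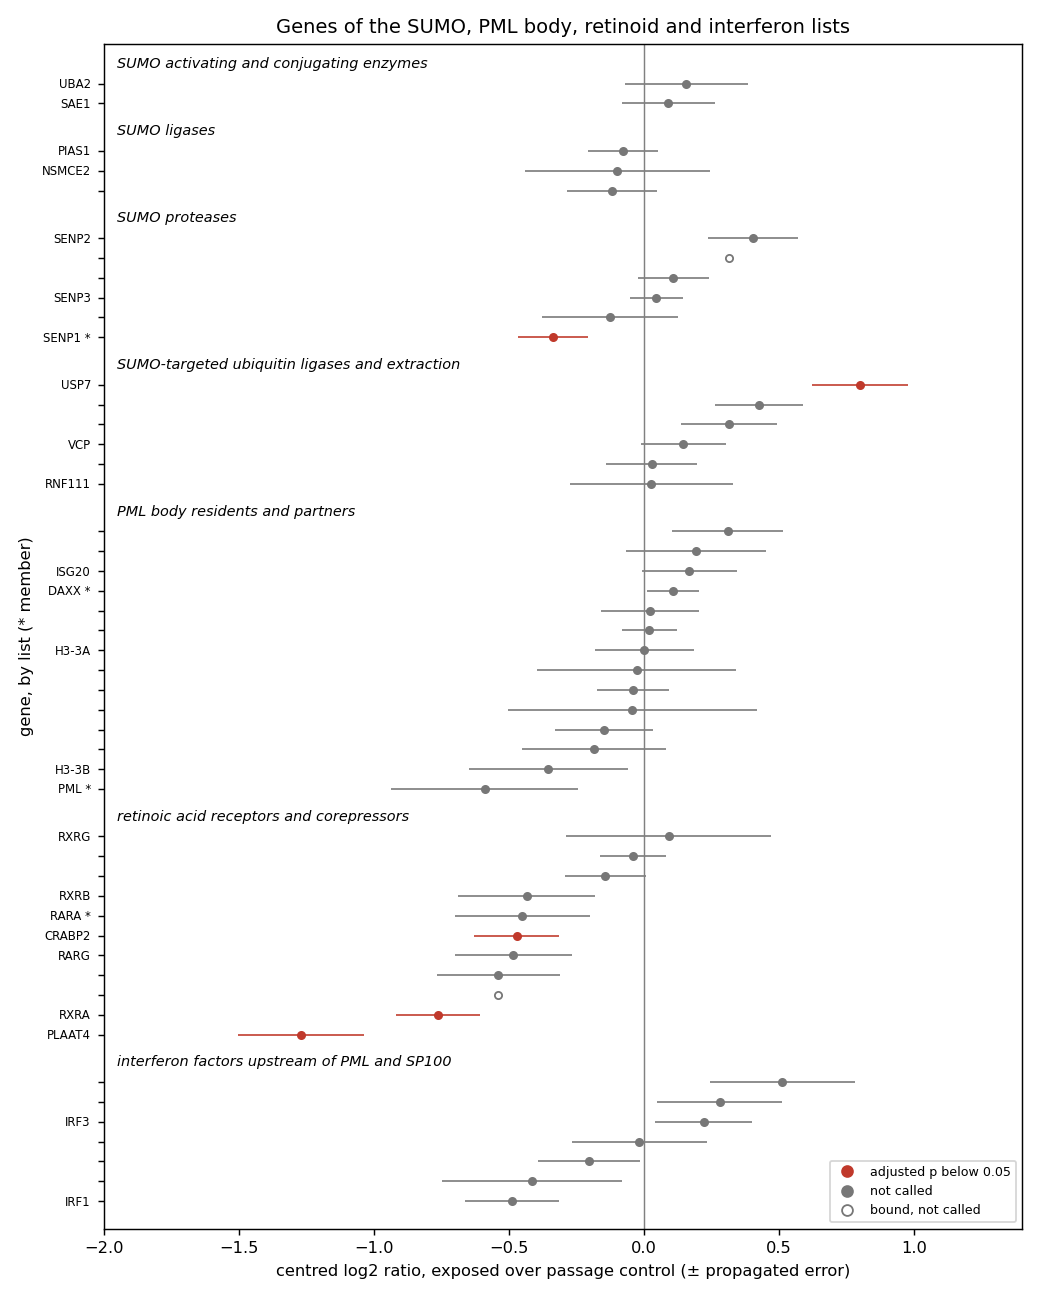
Centred log2 ratio of exposed over passage control cells, with the propagated error as bars, for 49 of the 51 measured genes of 7 lists (the other 2 are not reported here), sorted within each list and labelled where the text names them. Red points are called at an adjusted p below 0.05, open circles are bounds for genes detected in one group alone, and asterisks mark the members; USP7 is the only red point above 0, while the retinoid list has 10 of 11 points below 0.

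The cells showed keratinocyte transcripts in both groups. Of 10 keratinocyte markers 9 had a probe of their own and 8 were measured, none of them called, with KRT5 at 30404 in exposed and 40026 in passage control cells. The summed intensity of the list was 43429 in exposed cells, against 59526 in passage control cells. Intensities and sums given here are not centred. Before centring, the median ratio over probes detected in both groups was 1.35-fold lower in exposed cells. KRT1 was not detected in either group. Markers of melanocytes, fibroblasts, leukocytes and endothelium summed to 332, 497, 596 and 252 in exposed cells and to 444, 788, 1265 and 410 in passage control cells, with 1 of 4, 4 of 6, 1 of 5 and 1 of 2 measured. CD14, with 545 in exposed cells against 1190 in passage control cells, was called lower, whereas PTPRC was not detected in either group. The part of these transcripts in the ratios of PML and SENP1 was not tested.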

How the data were processed

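Transcripts were measured in 2 samples, exposed HaCaT cells and passage control cells. Per the labels' protocols, amplification used amino-allyl UTP, to which Cy5 was coupled. Image analysis, normalization, test and build are not stated in the labels or headers. The authors deposited linear normalized intensity values with errors, a detection p-value per group, and a log2 ratio of exposed over control with its p-value. Precision is limited by the number of arrays.

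A fit on replicates needs several values per group and was not made. The deposited p-values were adjusted over all measured genes with one. Each gene was represented by its brightest probe naming 1 symbol (22935 of 30968 probes), with symbols updated through RefSeq's table for GRCh38.p14. A gene was measured (7691 of 18449) when its probe was detected in both groups, or in one group alone that was also the higher after centring. In the second case the ratio is a bound, since the undetected group took its own intensity or, if higher, the lowest detected one there. The members, lists and tests were chosen with earlier results of these data known. Named genes were the members, the called genes of each list and, where none was called, its 2 brightest measured genes. UBA2, SENP2, SENP3, RNF111, VCP, RARG, RXRB, RXRG, H3-3A, the markers and the undetected genes are named outside that rule, after their values were seen. The counts include listed genes whose own values are not reported here. With 2 groups no gene could be named for likeness of pattern. Python 3.11.15, numpy 2.4.6 and pandas 2.3.3 were used, and the steps were tested on simulated data. Alternatives were no centring, centring on each group's own median, the deposited log2 ratio, an offset of 32, quantile normalization, the mean over probes, other uses of the p-values, a filter on dim genes and a 1.5-fold limit.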

Additional observations from a re-analysis of the deposited data

How the results depend on the processing

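PML, SENP1 and RARA kept their direction under all 5 alternatives run for the ratio. Without centring every ratio is lower by the same amount, so that alternative could not turn a ratio already below 0. PML ranged from -1.02 to -0.57, SENP1 from -0.77 to -0.32 and RARA from -0.88 to -0.20 on the log2 scale. DAXX turned to -0.32 without centring and lay between 0.08 and 0.13 under the other 4. This follows from the shift of -0.43 that centring removes. SENP1 had an adjusted p of 0.0445 when adjusted over all probes with a deposited p-value and of 0.0225 over genes above the median intensity. Over the genes above the median intensity IRF1 was called lower too, which made 5 listed genes lower. At a deposited p-value without adjustment 2 members were called lower (PML and SENP1) and none higher, and 2 listed genes were called higher and 7 lower, against 1 and 4 in the results above. By this rule 7.15% of all tested genes were higher and 6.42% lower. At a 1.5-fold limit with no p-value PML was the only member past it. The mean over probes gives nothing to compare, because each detected member has 1 probe. SP100, SUMO2 and SUMO3 have no ratio under any of these, and the shared RNF4 probe was not taken through them. No paired analysis was possible because each group has 1 combined value per probe, and for the same reason no replicate could be left out. Probes near the lowest detected intensity, such as that of RARA, limit what can be seen.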

Other observations

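The tripartite motif (TRIM) family, to which PML belongs by its RING, B-box and coiled-coil arrangement, was listed by symbol after the values above were seen, so its counts are a description. PML is not in this list, as its symbol does not begin with TRIM. Of 58 TRIM genes with a probe of their own 24 were measured, with a median centred log2 ratio of -0.07. Of the 24, 3 (12.5%) were called lower and none higher, against 2.56% lower and 3.11% higher among all tested genes. TRIM31, a ubiquitin ligase of epithelial cells, read 289 in exposed cells against 608 in passage control cells, a centred log2 ratio of -0.64 ± 0.13. TRIM29, a TRIM protein of stratified epithelia that lacks the RING domain, read 1475 in exposed cells against 2678 in passage control cells, a centred log2 ratio of -0.43 ± 0.14. TRIM6 stood at -0.30 ± 0.12. TRIM28, a corepressor that carries SUMO, stood at 0.13 ± 0.16 and was not called.

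Pathways of other ubiquitin-like proteins, also listed afterwards, held no called gene, against 5.68% called among all tested genes. So few measured genes can hold no call at that share. Of 9 genes of the NEDD8 pathway 4 were measured, among them NEDD8 itself at 0.16 ± 0.11, with 45093 in exposed cells against 54487 in passage control cells. Of 5 genes of the ISG15 pathway 3 were measured, with the interferon-induced modifier ISG15 at -0.27 ± 0.19. Of 7 genes of the UFM1 pathway only UFC1 was measured, at -0.07 ± 0.21. A second probe naming UBA2, shared with another gene and so left out of the lists, read 140 in exposed cells against 115 in passage control cells, with a deposited p-value of 0.0203 and an adjusted p over all probes of 0.241, which did not pass.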
